A study of Mus musculus with 6 samples.

Results

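RGS proteins (regulators of G protein signalling) are a family that switches off signals from G protein coupled receptors. Such a receptor loads the alpha subunit of a G protein with GTP, and the RGS domain speeds up the hydrolysis of that GTP, so that the signal ends sooner. In B lineage cells the receptors concerned include those for chemokines and sphingosine 1-phosphate, which steer where the cells go. The 9 genes described here are Rgs1, Rgs2, Rgs3, Rgs10, Rgs12, Rgs14, Rgs16, Rgs18 and Rgs19, out of 18193 genes with a single name on the array. They were chosen from the RGS family with the values of these arrays after 0 and 1 Gy already known. The changes with dose are therefore a description of these genes, and the adjusted p printed beside them gives only their place in the fit over the whole array.

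The arrays measured RNA from 3 WT pre-B cell lines that were derived independently from mice with an Eμ-Bcl2 transgene (Bcl2 protects cells from apoptosis) and that were transformed with the v-Abl kinase. All 6 cultures were held for 48 hours in 3 μM STI-571 (imatinib), an inhibitor of that kinase which blocks these cells at the G1-to-S transition. Each line gave 1 mock-irradiated culture (0 Gy) and 1 culture exposed to 1 Gy of γ-rays at 0.72 Gy per minute, both collected 2 hours later. The 2 arrays with the same replicate number were taken to come from the same line, since the labels give this number but no line name. These numbers name the lines below. The model is limited to transformed and arrested cells that carry the transgene at both doses, with 1 culture of each line at each dose. A probe set is a set of short probes designed against the same transcript, and it gives 1 signal in arbitrary units. With 3 arrays at each dose, precision is limited by their number.

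All 10 pre-B cell markers on the array, among them Cd79a, Cd79b, Vpreb1 and Pax5, had signals of 100 or above on all 6 arrays. Of these 10, limma called 2 lower after 1 Gy, the recombinase genes Rag1 (log2 fold change -1.77, adjusted p = 0.0188) and Rag2 (-2.40, adjusted p = 0.0185). All 5 T cell markers and all 3 erythroid markers stayed under 100. The summed signal of 7 myeloid markers was 351 to 462 on the mock arrays and 559 to 638 on the irradiated arrays, against 116565 to 122690 and 89591 to 121301 for the pre-B cell markers. Of the 7 myeloid markers, Lyz2, Mpo, Elane, Csf1r and Adgre1 were under 100 throughout. Itgam gave 163, 162 and 130 on the mock arrays of lines 1, 2 and 3 and 262, 342 and 235 after 1 Gy. Cd68 gave 111, 115 and 81.0 and then 185, 159 and 146. Neither was called (limma, adjusted p of 0.0680 and 0.108), but both were with the cell line as a block (0.0227 and 0.0352). The summed signal of 4 plasma cell markers was 5247 to 6493 on the mock arrays and 3279 to 5068 on the irradiated arrays. Most of it came from Xbp1, which was 2495 or above on every array. Xbp1 and Sdc1 were not called (limma, adjusted p of 0.0767 and 0.269), but both were called lower with the block (0.0443 and 0.0461). Prdm1 gave 595, 1502 and 295 on the mock arrays of lines 1, 2 and 3 and 937, 1314 and 513 after 1 Gy. It was higher in lines 1 and 3 and lower in line 2, without a call. Jchain was under 100 throughout. The part of these markers in the changes below was not tested.

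The 9 genes are represented by 21 of the 45037 probe sets that are not controls. A signal of 100 on at least 1 array was reached by 12 of these 21 probe sets, which belong to 7 genes. The study's methods set a minimum of 100 too, but on values processed otherwise than the deposited signals used here. The 2 cuts are therefore not the same. All 4 probe sets of Rgs3 and all 3 of Rgs16 stayed below 100. Of the 12 probe sets tested, 3 were higher after 1 Gy in 3 of 3 lines, 3 were lower in 3 of 3 lines and 6 went in different directions. By limma over 21762 probe sets, 1 of the 12 was called lower (adjusted p under 0.05) and 0 were called higher, while 2 had an unadjusted p under 0.05 (23% of all tested probe sets). The background was 2.55% of all tested probe sets called lower and 1.93% called higher. With the cell line as a block, 1 was called lower and 1 higher, against 11.5% and 6.78% of all tested probe sets. The 3 signals at one dose all lay above the 3 at the other in 2 of the 12 probe sets (29.9% of all tested probe sets). Over the array 419 probe sets were called higher and 556 lower, and 369 and 274 with all arrays brought to the same median.

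**Figure D1:**
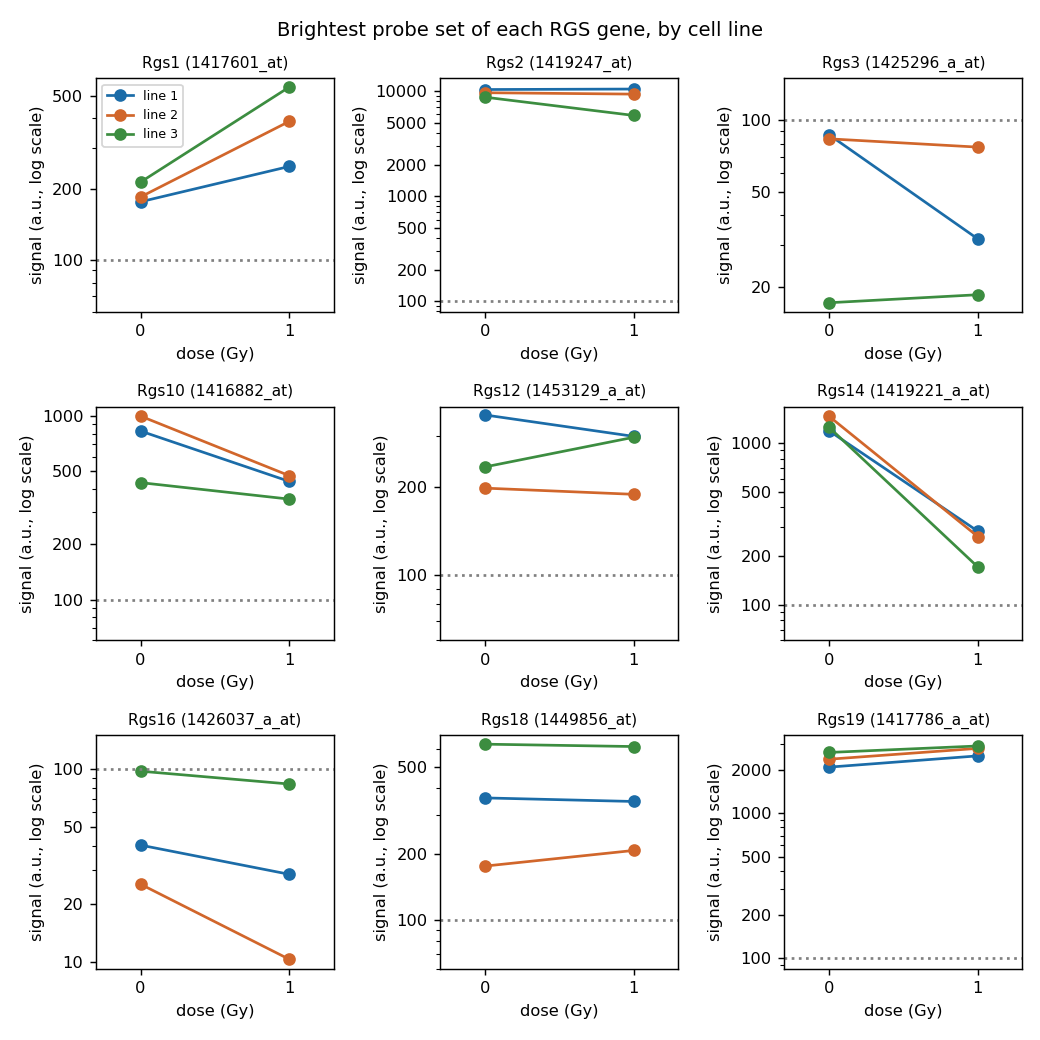
Signals of the brightest probe set of each of the 9 RGS genes (vertical axes, logarithmic, arbitrary units, with the minimum of 100 dotted) at 0 and 1 Gy (horizontal axes), where 1 coloured line stands for each cell line. The 3 lines of Rgs14 fall steeply together, the 3 of Rgs1 rise by different amounts, the 3 of Rgs18 lie apart and nearly level, and Rgs3 and Rgs16 stay below 100.

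The R12 subfamily holds the member with the greatest change. Rgs14 carries, beside its RGS domain, a GoLoco motif that holds inhibitory alpha subunits in the GDP-bound state and domains that bind Ras and Rap GTPases. Its 1 probe set gave mock signals of 1191, 1465 and 1252 in lines 1, 2 and 3, and signals of 284, 264 and 171 in the same lines after 1 Gy. Every irradiated array lay far below every mock array, and the mock signals of the 3 lines lay close together. The signal was 4.19-fold lower in line 1, 5.56-fold lower in line 2 and 7.33-fold lower in line 3. In limma the log2 fold change was -2.47 (standard error 0.25, adjusted p = 0.0138, and 0.0109 with the line as a block). Of 9678 genes, each represented by its brightest probe set, 20 had a more negative log2 fold change. With any 1 of the 6 arrays left out the log2 fold change was -2.61 to -2.24 and the call was lost, with adjusted p of 0.0522 to 0.0755 (limma). In bulk RNA of this kind, fewer cells that express a gene and less RNA per cell cannot be told apart. The 3'/5' ratio of the beta-actin control, a sign of RNA quality, was at or above 1.40 on every mock array. It was between 1.26 and 1.38 on the irradiated arrays. That of the Gapdh control overlapped between the doses, at 0.768 to 0.900 on the mock and 0.785 to 0.800 on the irradiated arrays. The part of RNA quality in the fall of Rgs14 was not tested.

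The profiles closest to that of Rgs14 were sought over the 6 arrays. Since the fall with dose is the main feature of its profile, genes picked this way fall as well. Likeness was the root mean square difference between log2 profiles, each centred on its own mean, over 9677 other genes, and the 6 arrays are 3 pairs from the same lines. The closest was Slc16a1, a transporter of lactate and other monocarboxylates, at 0.14 on the log2 scale. It was followed by Glrx, the thiol reductase glutaredoxin, at 0.17 and by Socs1, an inhibitor of JAK kinases, at 0.20. Slc16a1 gave mock signals of 11482, 14285 and 11273 and irradiated signals of 2932, 2954 and 1390 in lines 1, 2 and 3. As in Rgs14, line 2 had the highest mock signal and line 3 the lowest signal after 1 Gy. Picking close profiles over the same arrays favours such a likeness. Socs1 shared it, whereas in Glrx line 2 had the lowest mock signal (1895, 1863 and 1899 in lines 1, 2 and 3).

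Rgs10, a small member of the same subfamily that consists of little more than the RGS domain, was lower after 1 Gy in all 3 lines without passing the test. Its mock signals were 828, 999 and 434 in lines 1, 2 and 3, and its signals after 1 Gy were 440, 473 and 353. Lines 1 and 2 were about alike at each dose. Line 3 started lower, and its mock signal lay below the irradiated signals of the other lines, so that the doses overlapped. The signal was 1.88-fold lower in line 1, 2.11-fold lower in line 2 and 1.23-fold lower in line 3. The log2 fold change was -0.76 (standard error 0.39, adjusted p = 0.250 from limma, and 0.0596 with the line as a block). The 250 bases before the single start that RefSeq lists for Rgs10 (GRCm38.p6, chr7:128418173-128418422, minus strand) are shown for an R12 gene that was lower in all 3 lines. Capitals mark the motifs found.
Rgs10: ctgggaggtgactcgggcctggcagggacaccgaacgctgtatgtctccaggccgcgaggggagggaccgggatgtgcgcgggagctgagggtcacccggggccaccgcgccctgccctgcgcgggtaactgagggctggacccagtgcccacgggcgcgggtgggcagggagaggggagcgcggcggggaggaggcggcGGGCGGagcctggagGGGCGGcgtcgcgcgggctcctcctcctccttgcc
The search covered both strands for the κB motif, the CRE half-site TGACG, the AP-1 motif TGANTCA, the GC box GGGCGG, the E-box CAGGTG and the TATA box TATAAA. In the Rgs10 window only the GC box was found, 2 times. Of 32851 promoter windows of 250 bases, 32.7% hold it.

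Rgs12, the largest of the 3 R12 genes, shares the GoLoco motif and the Ras-binding domains with Rgs14. Its brightest probe set gave mock signals of 353, 199 and 234 in lines 1, 2 and 3, and signals of 298, 189 and 296 after 1 Gy. The signal was lower in lines 1 and 2 and higher in line 3, and the doses overlapped. The log2 fold change was 0.01 (standard error 0.33, adjusted p = 0.992 from limma). The other 2 probe sets of Rgs12 ranged from 22.3 to 87.4 and were not tested.

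**Figure D2:**
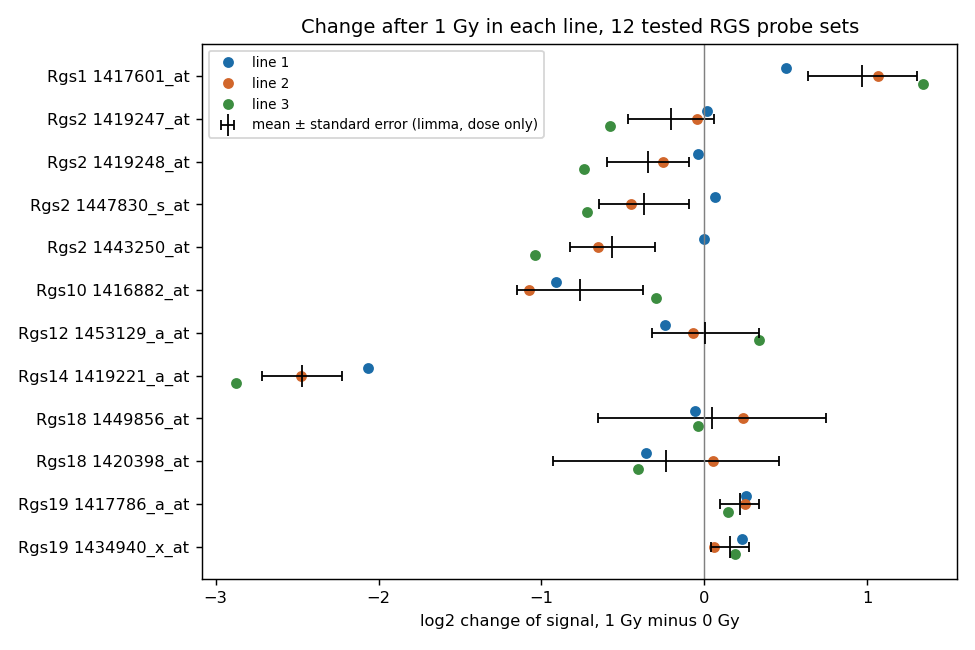
Log2 change of signal from 0 to 1 Gy (horizontal axis) for the 12 tested probe sets of RGS genes (vertical axis), with 1 coloured point per cell line and black bars for the mean and standard error from limma. Rgs14 stands at -2.47 with its 3 points between -2.87 and -2.07, the 4 probe sets of Rgs2 have line 3 lowest and line 1 near 0, and the 3 points of Rgs18 lie well inside the standard error of the fit without the line.

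Members of the R4 subfamily are small proteins built around the RGS domain. Rgs1, which in B cells dampens responses to chemokines, was higher after 1 Gy in all 3 lines. Its mock signals were 176, 185 and 214 in lines 1, 2 and 3, and its irradiated signals were 249.5, 388 and 543. The doses did not overlap, but line 1 moved little and line 3 most. The signal was 1.41-fold higher in line 1, 2.10-fold in line 2 and 2.54-fold in line 3. The log2 fold change was 0.97 (standard error 0.34), with adjusted p = 0.128 from limma, and it passed with the line as a block (adjusted p = 0.0387). Of the 9678 genes, 3.96% had a larger log2 fold change upward. With single arrays left out the log2 fold change was 0.70 to 1.26.

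Rgs2, which acts mainly on alpha subunits of the Gq class, gave signals far above 100 on every array in 3 of its 4 probe sets. Its brightest probe set had mock signals of 10372, 9672 and 8776 in lines 1, 2 and 3, and signals of 10482, 9379 and 5879 after 1 Gy. Here lines 1 and 2 hardly moved and line 3 was 1.49-fold lower. In the other probe sets line 2 was lower too, by 1.19-fold, 1.37-fold and 1.57-fold, and line 3 by 1.67-fold, 1.65-fold and 2.05-fold. Line 2 had the highest mock signal in these 3 probe sets and line 1 in the brightest. Line 1 changed by -0.04 to 0.06 on the log2 scale in the 4 probe sets. The log2 fold changes over the 3 lines were -0.56 to -0.20, and the adjusted p was 0.237 to 0.685 (limma). The probe set with the falls of 1.57-fold and 2.05-fold and the log2 fold change of -0.56 was dim, with signals of 63.5 to 146. It reached 100 only on the mock arrays of lines 2 and 3, so that it was tested only through its mock signals. Whether the lines differed in their response could not be tested, with 1 array per line and dose. Without the irradiated array of line 3 the log2 fold change of the brightest probe set was 0.049. The window before the single start of Rgs2 (GRCm38.p6, chr1:144004150-144004399, minus strand) is shown as that of the member with the brightest probe set, and for comparison with Rgs10.
Rgs2: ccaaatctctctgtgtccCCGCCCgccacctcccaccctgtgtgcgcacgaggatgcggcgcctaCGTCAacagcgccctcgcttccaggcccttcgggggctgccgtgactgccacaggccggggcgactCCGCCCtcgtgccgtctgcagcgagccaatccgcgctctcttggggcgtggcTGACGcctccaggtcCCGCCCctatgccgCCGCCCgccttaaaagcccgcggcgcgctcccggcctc
Here the GC box was found 4 times and the CRE half-site, to which factors of the cAMP response bind, 2 times, with no overlap between them. The half-site is in 17.8% of the 32851 windows. The κB motif (7.25% of windows), the AP-1 motif (6.75%), the E-box (17.2%) and the TATA box (12.4%) were not found in the windows of Rgs2 and Rgs10.

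Rgs18, known from platelets and megakaryocytes, did not follow the dose. Its brightest probe set gave mock signals of 360, 176 and 633 in lines 1, 2 and 3, and signals of 347, 208 and 617 after 1 Gy. Each line kept its level, with line 3 highest and line 2 lowest at both doses. The second probe set gave 263, 154 and 568 and then 206, 160 and 428. The log2 fold changes with dose were 0.05 (standard error 0.70) and -0.24 (standard error 0.69), with adjusted p of 0.974 and 0.857 from limma, and their sign turned with single arrays left out.

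The remaining members of the subfamily on the list were dim. Rgs3 ranged from 2.50 to 87.1 over its 4 probe sets, and Rgs16, which is induced in activated lymphocytes, from 10.4 to 97.8 over its 3. Neither reached the minimum of 100, so that no change was tested. The brightest probe set of Rgs16 gave mock signals of 40.5, 25.4 and 97.8 and irradiated signals of 28.6, 10.4 and 84.0 in lines 1, 2 and 3. In this probe set line 3 was highest and line 2 lowest at both doses, whereas in the second brightest line 1 was lowest at both. Signals at this level are too low to order the lines with certainty.

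Rgs19, of the RZ subfamily, also acts on inhibitory alpha subunits. Its brightest probe set gave mock signals of 2084, 2363 and 2632 in lines 1, 2 and 3, and 2492, 2808 and 2917 after 1 Gy. Every line was higher, by 1.20-fold, 1.19-fold and 1.11-fold. The doses still overlapped, since the mock signal of line 3 exceeded the irradiated signal of line 1. The log2 fold change was 0.22 (standard error 0.12, adjusted p = 0.457 from limma). The second probe set was higher in 3 of 3 lines as well, with a log2 fold change of 0.16.

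**Figure D3:**
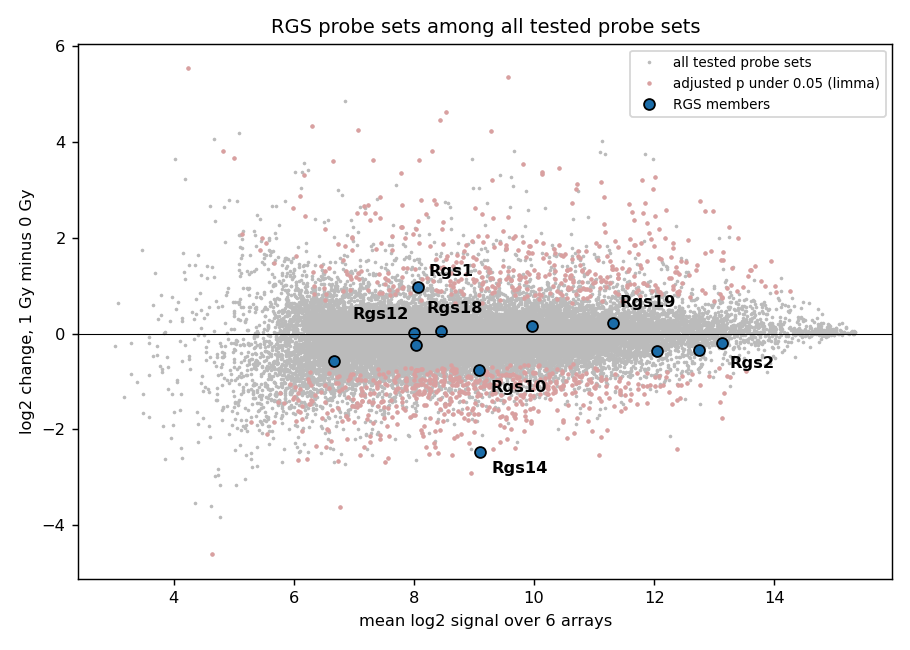
Log2 change from 0 to 1 Gy (vertical axis) against mean log2 signal over the 6 arrays (horizontal axis) for 21762 tested probe sets in grey, those with adjusted p under 0.05 in red, and the 12 probe sets of RGS genes as blue circles, of which the brightest of each gene is named. Rgs14 lies among the called probe sets at the lower edge, and the other members lie within the grey cloud.

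Differences between the cell lines were not used to choose the genes, and were tested in a fit with dose and line. Of the 12 tested probe sets, 2 differed between the lines (F-test in limma, adjusted p under 0.05) against 8.6% of all tested probe sets. An unadjusted p under 0.05 was found for 4 of the 12 and for 29.4% of all. Both that were called belong to Rgs18. In its brightest probe set, line 3 was 3.27-fold above line 2 (log2 difference 1.71, standard error 0.12) and line 1 was 1.85-fold above line 2 (adjusted p = 0.0192 from limma). In the second, line 3 was 3.15-fold above line 2 (log2 difference 1.65, standard error 0.18, adjusted p = 0.0264). Without the filter on dim probe sets limma called 0 probe sets on the whole array for line, and the adjusted p of Rgs18 was 0.252 and 0.265. The probe sets of the other members gave adjusted p of 0.142 and above, and Rgs10 was called in addition with a trended variance prior (adjusted p = 0.0466 from limma). For Rgs14 it was 0.421, with log2 differences between lines of -0.43 to 0.09 (standard error 0.29). The test sets the lines against the spread between the mock and the irradiated culture of each line after the mean effect of dose.

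Markers of other cells were set beside the line difference of Rgs18. Among 6 markers of megakaryocytes and platelets, Pf4, Ppbp, Gp1bb and Gp9 were under 100 on every array, and the summed signal was 645, 443 and 457 on the mock arrays of lines 1, 2 and 3 and 993, 601 and 757 on the irradiated arrays. Of the other markers, Itgb3 gave 445, 198 and 142 and then 784, 389 and 440, highest in line 1 at both doses. The last, Itga2b, gave 157, 154 and 195 and then 175, 114 and 196, and like Rgs18 it was lowest in line 2 and highest in line 3 at both doses. Klrd1, a receptor chain of NK cells, gave 1782 and 596 in line 3 and at most 35.7 in the other lines, whereas Ncr1 and Nkg7 stayed under 100. The part of these markers in the difference was not tested.

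**Figure D4:**
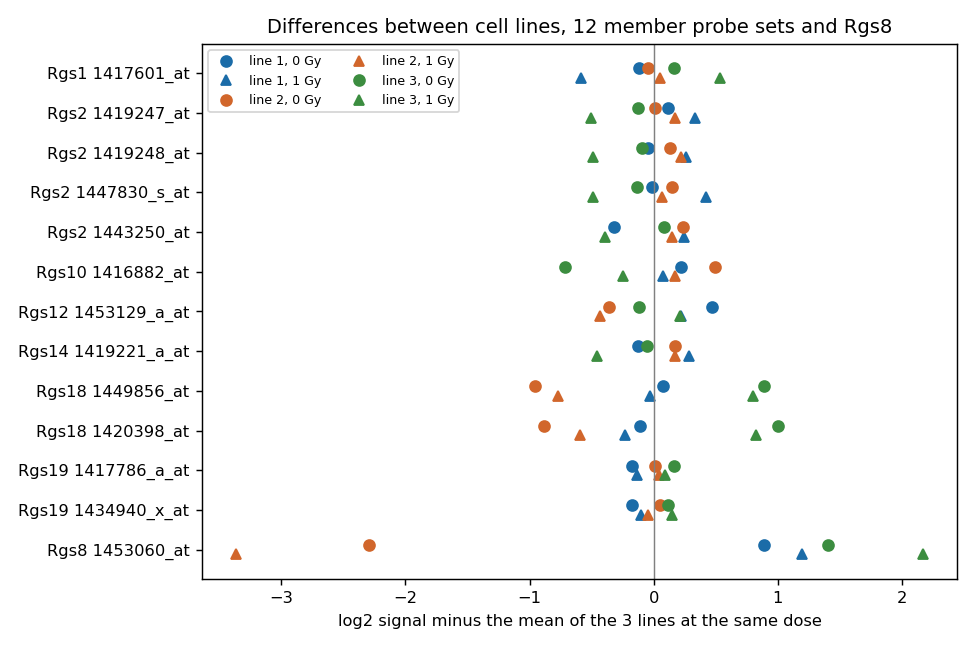
Log2 signal of each cell line minus the mean of the 3 lines at the same dose (horizontal axis) for the 12 tested probe sets of RGS members and 1 of Rgs8 (vertical axis), with circles for 0 Gy and triangles for 1 Gy. Both probe sets of Rgs18 have line 2 lowest and line 3 highest at both doses, and Rgs8 is lowest in line 2, where its signals were 15.5 and 3.46.

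Of the other RGS genes, 12 are on the array with 25 probe sets, and 2 of these probe sets, for Rgs8 and Rgs9, reached 100 on at least 1 array. Neither passed the test for dose (adjusted p = 0.759 and 0.789 from limma). Rgs8, a neuronal member of the R4 subfamily, gave mock signals of 141, 15.5 and 202 in lines 1, 2 and 3, and 81.3, 3.46 and 160 after 1 Gy. It differed between lines (adjusted p = 0.0206, F-test in limma), with line 2 far below 100 at both doses. It reached 100 only in lines 1 and 3, so that it was tested only through the lines where it was high. Without the filter limma called 0 probe sets on the whole array for line, Rgs8 included. It was lower in 3 of 3 lines, with a log2 fold change of -1.10 (standard error 2.06). In the order of protein-coding genes on chromosome 1 (RefSeq, GRCm38.p6), Rgs8 and Rgs16 are direct neighbours. A second run of 5 neighbours holds Rgs2, Rgs13, Rgs1, Rgs21 and Rgs18 in that order. Rgs21 is not on the array, and Rgs13, which lies between Rgs2 and Rgs1, was at most 17.2 and was not tested. Rgs1 was higher after 1 Gy in all 3 lines without a call for dose alone (limma, adjusted p = 0.128). No probe set of Rgs2 was called for dose, and Rgs18 varied with the line.

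Other genes of G protein signalling were set beside all genes tested. Over 9 lists, 89 genes outside the 9 members were tested, and 2 rose and 4 fell (limma), which is 6.74% against 5.35% of all 9678 genes. Their median log2 fold change was -0.06, against -0.11 over all genes. With any 1 array left out limma called 0 of the 89, and 7 to 11 were higher and 16 to 18 lower at an unadjusted p under 0.05. Over all 6 arrays 25.1% of all genes had such a p. With the line as a block 28 of the 89 were called, 10 higher and 18 lower. Of all 9678 genes 641 were then called higher and 1426 lower, which is 21.4% in either direction. These lists were set down with earlier results of the same arrays known.

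Among the 15 receptors tested, 2 rose and 1 fell (limma), beside the 5.35% of all genes called in either direction. Cxcr5, the receptor that leads B cells into follicles, rose from 84.9 ± 17.0 to 184 ± 12.1 (SD, n = 3 lines), and its log2 fold change was 1.13 (limma, adjusted p = 0.0350). Gpr18, a receptor found on lymphocytes, rose by 1.05 on the log2 scale. S1pr4, a sphingosine 1-phosphate receptor of lymphocytes, fell from 2743 ± 718 to 781 ± 171 (log2 fold change -1.80, adjusted p = 0.0321 from limma). The median of the receptors was 0.46. With the block 5 were called higher and 4 lower, beside the 21.4% of all genes.

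Of the G protein subunits themselves, 1 of 9 alpha subunits and 1 of 8 beta and gamma subunits fell, and 0 rose. Of all genes 5.35% were called in either direction. With the line as a block 2 alpha subunits and 2 beta and gamma subunits were called lower and 0 higher, beside the 21.4% of all genes. Gna11, an alpha subunit of the Gq class, fell from 5755 ± 1057 to 2695 ± 370 (SD, n = 3 lines), and its log2 fold change was -1.09 (limma, adjusted p = 0.0442). Gng2, a gamma subunit, fell from 1248 ± 332 to 479 ± 24.9 (log2 fold change -1.35, adjusted p = 0.0362). The inhibitory alpha subunits on which Rgs14 and Rgs19 act did not pass the test. Gnai2 was 4379 ± 713 and 3660 ± 884, and Gnai3 was 5183 ± 106 and 6687 ± 459 (adjusted p of 0.541 and 0.161 from limma).

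Effectors and second messenger enzymes included 1 of 18 that fell and 0 that rose, beside the 5.35% of all genes called. This was Rapgef3 (Epac1), an exchange factor for Rap that cAMP activates, from 417 ± 128 to 134 ± 20.7 (SD, n = 3 lines), with a log2 fold change of -1.60 (limma, adjusted p = 0.0368). None was called among 12 other genes with an RGS domain, 6 GoLoco proteins and exchange factors, 5 arrestins or 14 Ras and Rap partners (limma). At an unadjusted p under 0.05 these lists held 2 higher and 2 lower, 0 and 0, 0 and 0, and 3 and 3, beside the 25.1% of all genes. With the line as a block 2 genes with an RGS domain were called higher and 2 lower, and among the Ras and Rap partners 1 higher and 3 lower. Among the 18 effectors and enzymes 2 were then called higher and 5 lower. Of all genes 21.4% were called with the block. The genes with an RGS domain include Axin2, a negative regulator of Wnt signalling. It was 3.84-fold, 3.43-fold and 3.45-fold higher in lines 1, 2 and 3 (limma, adjusted p = 0.208, and 0.0103 with the block). Of the Rap genes to which Rgs14 can bind, Rap1a was 7774 ± 705 and 7439 ± 191 and Rap2a was 235 ± 24.2 and 438 ± 108. Their adjusted p from limma was 0.842 and 0.0902, and 0.763 and 0.0256 with the block. Rap1b, Rap2b and Rap2c had log2 fold changes of 0.25, -0.01 and 0.47. For these 3 genes the adjusted p from limma was 0.361, 0.988 and 0.110, and 0.257, 0.962 and 0.0525 with the block.

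**Figure D5:**
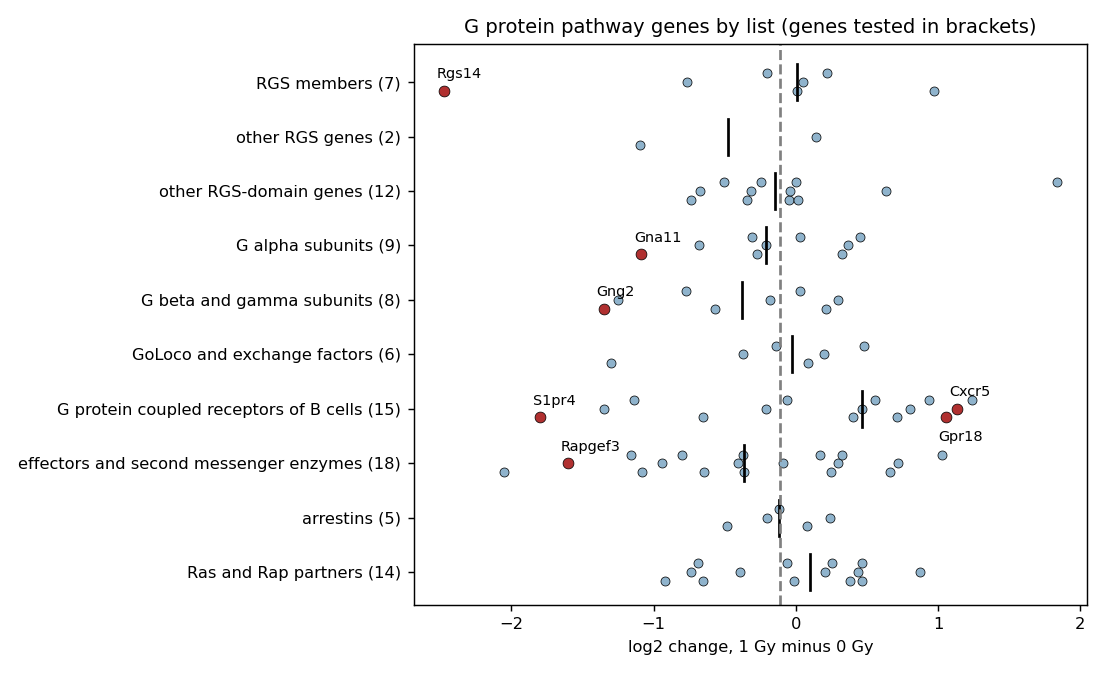
Log2 change from 0 to 1 Gy (horizontal axis) of the genes tested in each list (vertical axis, number tested in brackets), red where adjusted p was under 0.05 (limma), with black bars for list medians and a dashed line at the median of all genes, -0.11. Rgs14 lies lowest of all points, and 6 genes outside the members are red.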

How the data were processed

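RNA from 3 mock-irradiated and 3 irradiated cultures was hybridised to Affymetrix mouse arrays. The authors deposited 1 intensity per probe set and array on a linear scale, and MAS5 is the tool in the submitters' processing notes. With 2% trimmed at either end, every array averages 500. The study's methods name RMA and quantile normalization, but array medians of 51.6 to 59.4 show that these values are not quantile-normalized. On each array 41.7% to 43.8% of probe sets had signals of at least 100, and detection flags were not used.

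The 64 control probe sets were left out. Signals under 1 were set to 1 and log2 values computed. The 21762 of 45037 probe sets that reached 100 on any array were tested for dose alone, as in the methods, by limma (version 3.58.1, R 4.3.3) with Benjamini-Hochberg adjustment over all of them. Differences between lines were tested with an F-test in a fit with dose and line. A gene was represented by its brightest tested probe set with a single gene name in the platform annotation. Standard errors are from each probe set's own residuals, whereas p-values use limma's moderated variance. The scripts were tested on simulated data.

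The RGS genes, the lists and the tests were chosen with earlier results of these data known. Genes named are the members, up to 4 called genes of each list and the 3 nearest profiles of each called member. Other genes were chosen after their values were seen. Replicate numbers were used to pair the arrays by line, which the labels do not name. Deviations from group means correlated at 0.668 to 0.781 within the 3 pairs of the same number and at -0.495 to -0.0525 between numbers. Alternatives were the block, other filters, scalings, low-value rules and a trended variance prior, the methods' test, means over probe sets, and leaving out each array. Promoter sequences are from RefSeq (GRCm38.p6), which matched 6 of the 9 genes.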

Additional observations from a re-analysis of the deposited data

How the results depend on the processing

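Over all probe sets, limma called 3974 with the replicate number (cell line) as a block, 643 after scaling to a common median, 1476 with signals under 100 set to 100, 1515 with a trended variance prior and 1 without the filter. At its own thresholds the methods' test called 2850, and 352 once adjusted by Benjamini-Hochberg. Without single arrays limma called 0 to 94, and 0 without either array of line 2, where 1521 and 1686 were higher and 2227 and 2588 lower at an unadjusted p under 0.05.

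Of the RGS probe sets, 2 were called with the block and by the methods' test at its own thresholds (Rgs14 and Rgs1), and 0 by limma without the filter, where Rgs14 had an adjusted p of 0.0876 and 1 was higher and 1 lower at an unadjusted p under 0.05. Without single arrays 0 were called, with 0 to 1 higher and 1 to 2 lower at an unadjusted p under 0.05. Over all 16 alternatives Rgs14 was lower, with adjusted p of 0.00407 to 0.0876. With single arrays left out, log2 fold changes crossed 0 in the brightest probe sets of Rgs2 (-0.37 to 0.049), Rgs18 (-0.43 to 0.49) and Rgs12 (-0.17 to 0.24) and in the second of Rgs18 (-0.68 to 0.26), and the cause was not tested.

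Of the 89 genes of the other lists, 28 were called with the block, 10 with signals under 100 set to 100 and with means over probe sets, 12 with the trended prior, 17 by the methods' test at its own thresholds and 0 after adjustment, 0 by limma without the filter and 0 without single arrays. The line difference of Rgs18 was called in both probe sets under the other 5 alternatives run and lost without the filter, where limma called 0 probe sets on the array and 5 member probe sets had an unadjusted p under 0.05. Under the trended prior 3 were called, Rgs10 being the addition. Signals under 100, as in Rgs3 and Rgs16, limit what can be said of them.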
